A study of Mus musculus with 9 samples.

Results

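The tumour suppressor p53 (Trp53 in the mouse) and 9 of its best known target genes were followed in testis RNA: Cdkn1a, Mdm2, Sesn1, Sesn2, Gadd45a, Zmat3, Bbc3, Phlda3 and Pmaip1. They were picked by symbol as a pathway. All 10 were among the 19991 genes of the count table and all 10 passed the filter on low counts, which kept 15834 genes. Mice of the outbred ICR stock, 8 weeks old, had been injected with AZ82 at 1 µM, with CW069 at 50 µM or with PBS (Control). Both compounds, known by code names, inhibit KIFC1, a kinesin motor of the spindle that bundles microtubules and clusters centrosomes. Each group held 3 libraries of whole testis, 9 in all, and every mouse was of the same stock and age. The labels give neither the route of injection nor the time to collection, and do not say whether the 3 libraries of a group came from separate animals, so p-values measure the spread between libraries, which may be technical.

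p53 is a transcription factor whose protein is kept scarce by MDM2, a ubiquitin ligase that is itself a p53 target, so that the pair forms a negative feedback loop. After DNA damage, spindle failure or nutrient stress the protein is stabilised and switches on genes that halt the cell cycle, restrain growth signalling or start cell death. Because this control acts mainly on the protein, transcripts of the targets are commonly read as the sign of p53 activity, more than the Trp53 transcript. In the mouse testis p53 is known from meiotic spermatocytes and from the death of damaged spermatogonia.

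p53 binds a response element made of a pair of half-sites, each of 10 bases. RefSeq promoter windows (build GRCm38.p6, 250 bases before to 50 bases after each start) were found for 8 of the 10 members and not for Zmat3 or Pmaip1. Sequences are shown because p53 is known to act on such genes through elements of this kind. The p53 half-site consensus, which reads the same on both strands, was matched without mismatch in 5 of the members' 12 windows (41.7%), against 2745 of all 32851 windows (8.36%). These 5 windows belong to Trp53, Cdkn1a, Mdm2, Sesn1 and Gadd45a. In a wider list of p53 targets the half-site was matched in 10 of 60 windows (16.7%). The members were picked as a known pathway, so these shares are a description only. A full element was taken as a pair of adjoining half-sites with at most 1 mismatch in 20 bases. It was present in 29 of all windows (0.0883%), in 1 window of the members and in 3 of the 60 windows of the wider list. The window of the members is that of the upstream start of Cdkn1a, at chr17:29090729-29091028 on the plus strand. Its element begins at position -51 from that start and is in capitals here.
Cdkn1a: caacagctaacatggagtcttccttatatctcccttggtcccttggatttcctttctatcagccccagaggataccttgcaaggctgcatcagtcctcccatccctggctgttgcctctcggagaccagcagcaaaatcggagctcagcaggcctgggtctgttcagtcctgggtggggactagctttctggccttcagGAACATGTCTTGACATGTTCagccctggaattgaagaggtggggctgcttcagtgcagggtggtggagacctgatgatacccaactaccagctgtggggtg

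One of the wider targets with a full element is Ccng1 (cyclin G1), shown because it had the smallest p of that list after AZ82. The stretch is at chr11:40755452-40755491 on the minus strand, with the element in capitals.
Ccng1: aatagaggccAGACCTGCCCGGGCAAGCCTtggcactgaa

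Windows of Trp53, Mdm2, Sesn1 and Gadd45a held a half-site without a full element, in capitals in stretches of 40 bases. They lie at chr11:69580269-69580308 (plus) for Trp53, chr10:117710920-117710959 (minus) for Mdm2, chr10:41887251-41887290 (plus) for Sesn1 and chr6:67037423-67037462 (minus) for Gadd45a.
Trp53: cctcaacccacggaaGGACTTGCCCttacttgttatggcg
Mdm2: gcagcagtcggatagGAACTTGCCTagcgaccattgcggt
Sesn1: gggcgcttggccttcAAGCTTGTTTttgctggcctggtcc
Gadd45a: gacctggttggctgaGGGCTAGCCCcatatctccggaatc
The best pair of adjoining half-sites in these windows had 3 mismatches for Trp53, Sesn1 and Gadd45a and 5 for Mdm2. A match describes the letters of these windows only, and binding by p53 was not tested. Elements elsewhere in these genes were not searched.

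Total counts ran from 13856070 to 18102593 per library. Markers of all 11 cell types looked at, germ cells and somatic cells of the testis among them, were detected, with 0 markers absent from every library. Control 3 stood apart. Its 10 markers of elongating spermatids summed to 9216 CPM (reads of a gene as a share of the TMM-scaled library size), against 19246 and 21431 CPM in the other Control libraries, 19866 to 23440 CPM after AZ82 and 16355 to 18814 CPM after CW069. Fewer cells of a type and less RNA per cell cannot be told apart in these bulk libraries. Leydig markers, 10 genes of androgen-producing cells, summed to 1564 to 1899 CPM after AZ82 and 1490 to 1557 CPM after CW069, against 1840 to 1972 CPM in Control.

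Levels of the members spanned a wide range. Per kilobase of exon, Mdm2 came first at 33.8 ± 1.67 CPM per kb (SD over 9 libraries), a level at or above that of 88.0% of the 15394 tested genes with a known length. Sesn1 (9.37 ± 0.731) and Sesn2 (8.23 ± 0.877 CPM per kb) followed and overlapped each other, and Trp53 stood at 4.68 ± 0.405 CPM per kb. Cdkn1a (1.98 ± 0.203), Gadd45a (1.59 ± 0.324), Zmat3 (1.49 ± 0.175), Bbc3 (1.18 ± 0.211), Phlda3 (0.765 ± 0.105) and Pmaip1 (0.750 ± 0.142 CPM per kb) formed a low tail in which each gene's range overlapped that of the next. The feedback ligase was thus the most abundant transcript of the set. The death genes Bbc3 and Pmaip1, together with Phlda3, had the lowest means per kilobase, though within that overlapping tail. Depth differs accordingly, from 2287 to 3016 reads per library for Mdm2 and from 15 to 22 for Phlda3.

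AZ82 against Control and CW069 against Control ask whether the p53 programme moved after either inhibitor. No change of a member passed the test in these libraries of whole testis. A change confined to a minor cell type could be diluted in them, and this was not tested. Of the 10 members, 0 were called higher and 0 lower after AZ82, and 0 and 0 after CW069, at an adjusted p under 0.05 in edgeR's quasi-likelihood test over all genes; over all genes 0% were called in each comparison. DESeq2 and limma-voom likewise called 0 members. At an unadjusted p under 0.05 the members numbered 0 of 10 after AZ82, beside 8.84% of all genes (4.04% higher and 4.79% lower), and 1 of 10 after CW069, beside 7.34% of all genes. The groups did not overlap for 1 member after AZ82 and 1 after CW069, both lower, against 15.3% (8.62% lower) and 13.4% (7.24% lower) of all genes. The members' median log2 fold change was -0.07 after AZ82 and -0.05 after CW069, beside -0.0010 and -0.0038 over all genes, and 4 and 3 of the 10 lay above 0. Without Control 3 the members' medians were 0.02 and 0.03.

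**Figure D1:**
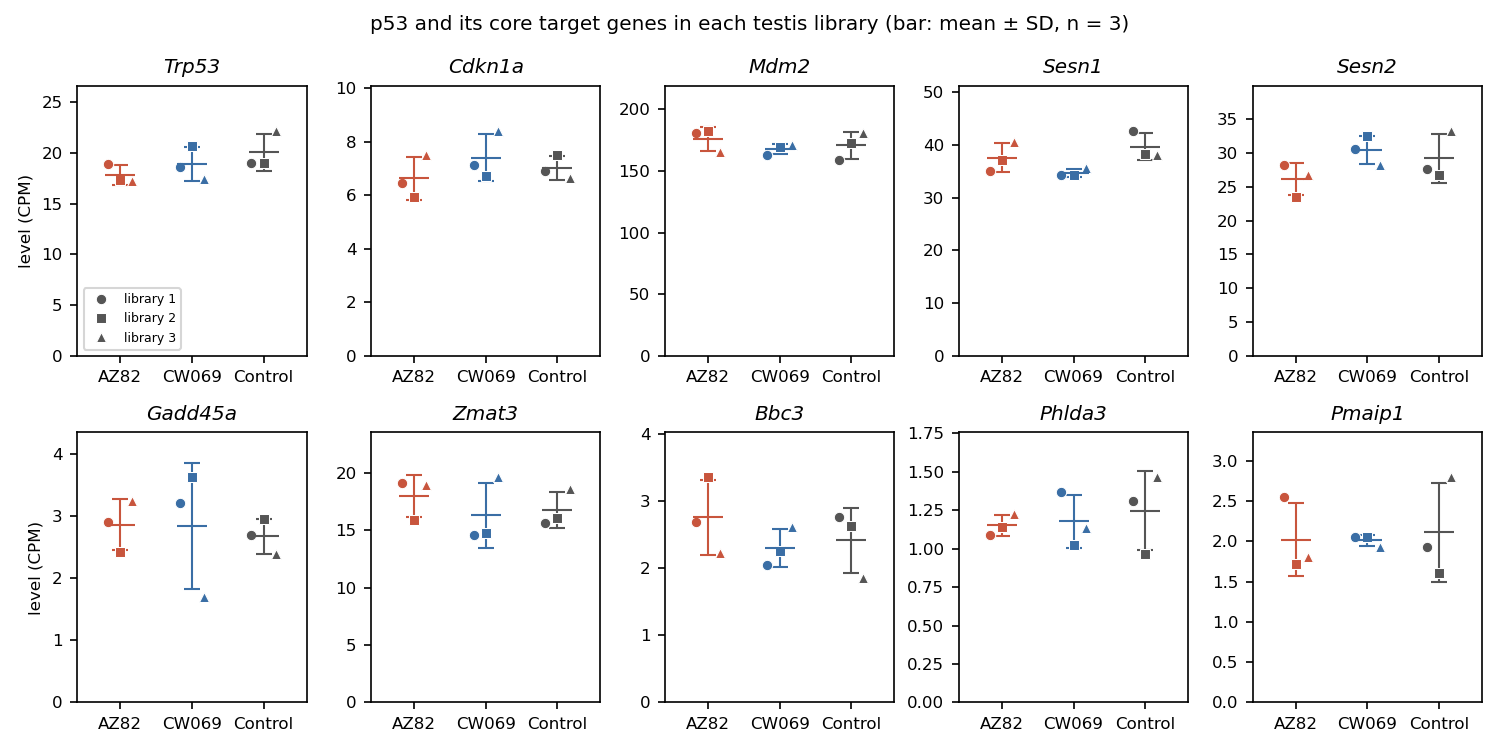
Level of each of the 10 genes (CPM, linear axes from 0) in the 9 testis libraries, as points, with the mean ± SD of each group of 3 as bars, for AZ82, CW069 and Control from left to right. The groups overlap for most genes. CW069 lies below Control for Sesn1 (34.2 to 35.6 against 38.1 to 42.7 CPM).

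Trp53 itself was at 18.9, 17.3 and 17.2 CPM in AZ82 1 to 3, at 18.6, 20.7 and 17.4 CPM in CW069 1 to 3, and at 19.0, 19.0 and 22.1 CPM in Control 1 to 3. The AZ82 libraries all lay below the Control libraries, though AZ82 1 by less than 1%, and the CW069 libraries overlapped with Control. Its log2 fold change was -0.17 ± 0.10 (SE) after AZ82 (95% interval -0.39 to 0.05; edgeR adjusted p = 0.614) and -0.09 ± 0.10 after CW069 (-0.31 to 0.13; adjusted p = 0.854). The highest Trp53 level of all was that of Control 3, the library low in elongating spermatid markers, and without it the values were -0.10 for AZ82 and -0.01 for CW069. The part of cell composition in this was not tested.

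Mdm2, which encodes the ligase that marks p53 for destruction, is the member measured with the least error. It was at 181, 182 and 165 CPM in AZ82 1 to 3, at 163, 169 and 171 CPM in CW069 1 to 3, and at 159, 172 and 181 CPM in Control 1 to 3. All 3 groups covered much the same range. The log2 fold change was 0.04 after AZ82 (95% interval -0.11 to 0.20; edgeR adjusted p = 0.855) and -0.02 after CW069 (-0.18 to 0.13; adjusted p = 0.960). As folds, the intervals of both comparisons lie between 0.883 and 1.15. For AZ82 the sign turned with scaling to library size alone (-0.04).

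Cdkn1a encodes p21, the cyclin-dependent kinase inhibitor through which p53 halts the cell cycle. Its levels were 6.48, 5.93 and 7.50 CPM in AZ82 1 to 3, 7.12, 6.71 and 8.41 CPM in CW069 1 to 3, and 6.90, 7.51 and 6.65 CPM in Control 1 to 3. The highest library was CW069 3 and the lowest AZ82 2, and both groups overlapped with Control. The log2 fold change was -0.08 ± 0.14 after AZ82 (95% interval -0.39 to 0.23; edgeR adjusted p = 0.866) and 0.08 ± 0.14 after CW069 (-0.22 to 0.38; adjusted p = 0.916). The upper ends of these intervals lie at 1.17 and 1.31 times the Control level.

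Gadd45a encodes a stress protein that binds PCNA and an upstream kinase of p38, and of the 10 members it had the widest spread within groups. It was at 2.91, 2.43 and 3.25 CPM in AZ82 1 to 3, at 3.22, 3.63 and 1.70 CPM in CW069 1 to 3, and at 2.69, 2.95 and 2.39 CPM in Control 1 to 3. CW069 held both the highest and the lowest library of the 9. That spread was 23.3% of its mean, against 15.6% from counting reads alone. Log2 fold changes were 0.09 after AZ82 (95% interval -0.50 to 0.69) and 0.07 after CW069 (-0.52 to 0.66; 0.35 without CW069 3 and -0.14 without CW069 2), with edgeR adjusted p = 0.929 and 0.971.

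Sesn1 and Sesn2 encode sestrins, which sense amino acids or oxidative stress and restrain the growth kinase mTORC1. Sesn1 was at 35.1, 37.1 and 40.6 CPM in AZ82 1 to 3, at 34.3, 34.2 and 35.6 CPM in CW069 1 to 3, and at 42.7, 38.3 and 38.1 CPM in Control 1 to 3. Every CW069 library lay below every Control library, while AZ82 overlapped with both. The log2 fold change after CW069 was -0.19 ± 0.08 (95% interval -0.36 to -0.02), with an unadjusted p of 0.0297 in edgeR and an adjusted p = 0.647. It is the lone member past an unadjusted 0.05, lower in 3 of 3 libraries, in a comparison where 3.71% of all genes were lower at that threshold and 7.24% lay lower without overlap. Without Control 1, its highest library, the value was -0.14 (unadjusted p = 0.128 in edgeR), and the unadjusted p was 0.0756 with DESeq2, 0.0511 with the replicate number as a block, 0.0679 without CW069 1 and 0.0686 without CW069 2. After AZ82 the value was -0.08 ± 0.08 (edgeR adjusted p = 0.760).

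Sesn2 was at 28.2, 23.6 and 26.8 CPM in AZ82 1 to 3, at 30.5, 32.5 and 28.3 CPM in CW069 1 to 3, and at 27.6, 26.7 and 33.3 CPM in Control 1 to 3. The CW069 libraries were all above the AZ82 libraries, though CW069 3 and AZ82 1 were nearly level, and both groups overlapped with Control. The log2 fold change was -0.16 ± 0.11 after AZ82 (edgeR adjusted p = 0.654; -0.06 without Control 3) and 0.06 ± 0.10 after CW069 (adjusted p = 0.918).

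Zmat3 encodes an RNA-binding zinc finger protein and Phlda3 a small protein that competes with the kinase AKT for membrane lipids. Zmat3 was at 19.1, 15.9 and 18.9 CPM in AZ82 1 to 3, at 14.6, 14.8 and 19.6 CPM in CW069 1 to 3, and at 15.7, 16.0 and 18.6 CPM in Control 1 to 3. Within each inhibitor group 1 library stood off the other two, in opposite directions. Its log2 fold change was 0.10 ± 0.13 after AZ82 and -0.03 ± 0.13 after CW069 (edgeR adjusted p = 0.826 and 0.973).

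Phlda3 was at 1.09, 1.14 and 1.23 CPM in AZ82 1 to 3, at 1.37, 1.03 and 1.14 CPM in CW069 1 to 3, and at 1.31, 0.963 and 1.46 CPM in Control 1 to 3. Those levels rest on 15 to 22 reads per library. The spread within groups (15.4% of the mean) was below that expected from counting alone (23.8%). Fold changes between 0.626 and 1.38 after AZ82, and between 0.643 and 1.39 after CW069, lie within the 95% intervals.

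Bbc3 (PUMA) and Pmaip1 (NOXA) encode BH3-only proteins that neutralise BCL2-type survival factors and so start mitochondrial cell death. Bbc3 was at 2.69, 3.36 and 2.24 CPM in AZ82 1 to 3, at 2.05, 2.26 and 2.61 CPM in CW069 1 to 3, and at 2.76, 2.63 and 1.86 CPM in Control 1 to 3. AZ82 2 was the highest library and Control 3 the lowest. The log2 fold change was 0.19 ± 0.23 after AZ82 (95% interval -0.31 to 0.69) and -0.06 ± 0.23 after CW069 (-0.57 to 0.44), with edgeR adjusted p = 0.801 and 0.972. The value after AZ82 was 0.03 without AZ82 2 and 0.03 without Control 3, and 0.32 without AZ82 3 and 0.30 without Control 1.

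Pmaip1 was at 2.55, 1.71 and 1.80 CPM in AZ82 1 to 3, at 2.05, 2.05 and 1.93 CPM in CW069 1 to 3, and at 1.93, 1.60 and 2.79 CPM in Control 1 to 3. The Control libraries spanned both inhibitor groups. Log2 fold changes were -0.06 after AZ82 (95% interval -0.63 to 0.50) and -0.07 after CW069 (-0.63 to 0.49), with edgeR adjusted p = 0.952 and 0.971. Without Control 3 both turned positive, at 0.19 and 0.19.

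**Figure D2:**
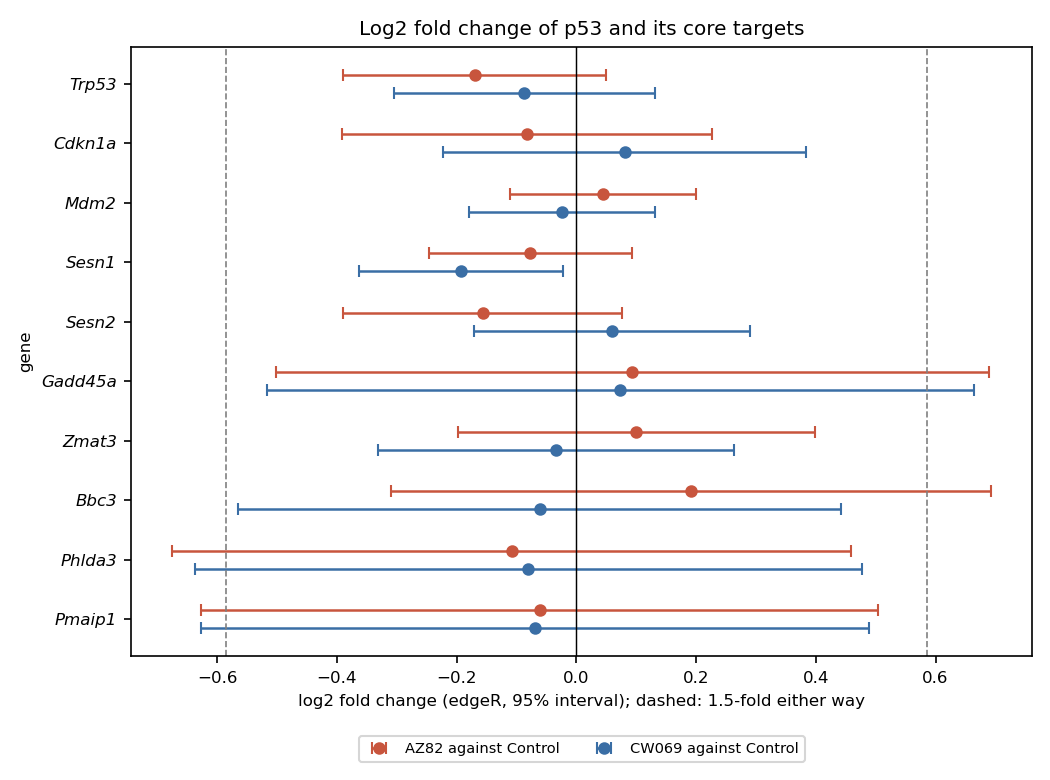
Log2 fold change of each gene against Control (points) with its 95% interval from edgeR (bars), for AZ82 and CW069, on an axis with 1.5-fold either way dashed. The intervals of 6 genes after AZ82 and of 7 after CW069 lie within 1.5-fold, and the wide ones belong to genes with few reads.

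The 95% intervals give the changes that the data allow. After AZ82 they lay within 1.5-fold either way for 6 of the 10 members (Trp53, Cdkn1a, Mdm2, Sesn1, Sesn2 and Zmat3), beside 68.8% of all genes. After CW069 they did so for 7, with Bbc3 added, beside 70.4% of all genes. The remaining genes, Gadd45a, Phlda3 and Pmaip1 in both comparisons and Bbc3 after AZ82, are those with at most 53 reads in any library.

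CW069 against AZ82 asks whether the inhibitor groups differed from each other; the doses, 50 µM and 1 µM, differ, so the compounds were not compared at a matched dose. Of the 10 members 0 were called, as were 0% of all genes, with a smallest adjusted p = 0.999 in edgeR, and 0 members had an unadjusted p under 0.05 (4.97% of all genes, 2.58% higher and 2.39% lower). Sesn2 was the member with the smallest p (log2 fold change 0.22 ± 0.11, 95% interval -0.02 to 0.45, unadjusted p = 0.0650 in edgeR). It was the 1 member without overlap between these groups, higher in CW069, against 11.3% of all genes (5.52% higher and 5.8% lower). The intervals of 7 members lay within 1.5-fold either way, beside 71.1% of all genes. For Cdkn1a the difference was 0.16 (-0.14 to 0.47) and for Mdm2 -0.07 (-0.22 to 0.09).

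The mean of both inhibitors against Control, which sets 6 libraries against 3, called 0 members, beside 0.00632% of all genes (1 gene). Sesn1 had the smallest p of the members (log2 fold change -0.13 ± 0.07, 95% interval -0.28 to 0.01; unadjusted p = 0.0676 and adjusted p = 0.537 in edgeR). Trp53 had -0.13 ± 0.09 (adjusted p = 0.633), Cdkn1a 0.00 (-0.26 to 0.26) and Mdm2 0.01 (-0.12 to 0.14). The intervals of 9 members lay within 1.5-fold either way, all but that of Gadd45a, beside 75.5% of all genes. In 0 members did the 6 inhibitor libraries lie clear of the Control libraries, against 5.11% of all genes (2.19% higher and 2.92% lower).

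Whether the targets' levels went with that of Trp53 from library to library was looked at after the values had been seen. Over the 9 libraries Sesn2 had the highest Pearson correlation with Trp53 among 9 relations (r = 0.81, exact permutation p = 0.00960, adjusted 0.0864), with Spearman's rho = 0.57 (exact permutation p = 0.121, adjusted 0.956). It kept its sign without Control 3 and AZ82 3, the 2 libraries farthest from the median of Trp53 (r = 0.72), but did not pass the correction. Pmaip1 had r = 0.67 (exact permutation p = 0.0492, adjusted 0.221; rho = 0.47, p = 0.213, adjusted 0.956), and r = 0.29 without those libraries. Bbc3 ran the other way (r = -0.60, exact permutation p = 0.0855, adjusted 0.256; rho = -0.25, p = 0.521, adjusted 0.982; r = -0.57 without those libraries). Gadd45a had r = 0.24 (exact permutation p = 0.525, adjusted 0.760; rho = 0.02, p = 0.982, adjusted 0.982) and r = 0.83 without them. Mdm2 (r = 0.18, exact permutation p = 0.644; rho = 0.10, p = 0.810) and Cdkn1a (r = -0.28, exact permutation p = 0.471; rho = -0.17, p = 0.678) showed no such relation past the threshold, and the adjusted values were 0.760 for r and 0.982 for rho in both. AZ82 2 was nearly as far from the median of Trp53 as AZ82 3 (log2 levels 4.122 and 4.119), so which libraries were left out hung on a small difference. The permutations ran over all 9 libraries without regard to group, so differences between groups enter these values. Groups of 3 are too few for a value within each group.

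Genes whose log2 levels over the 9 libraries ran closest to each of the main members were, for Trp53, the chromatin-remodelling subunit gene Mta2 (Pearson's r = 0.98), the methionyl-tRNA synthetase gene Mars1 (0.96) and Arhgef19 (0.94). For Cdkn1a they included Jmjd4 (0.96) and Prickle2 (0.92), and for Mdm2 they were Daxx (0.94), Eif1ad (0.94) and Dner (0.93). These are the highest values among all 15834 tested genes in only 9 libraries, given as a description.

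**Figure D3:**
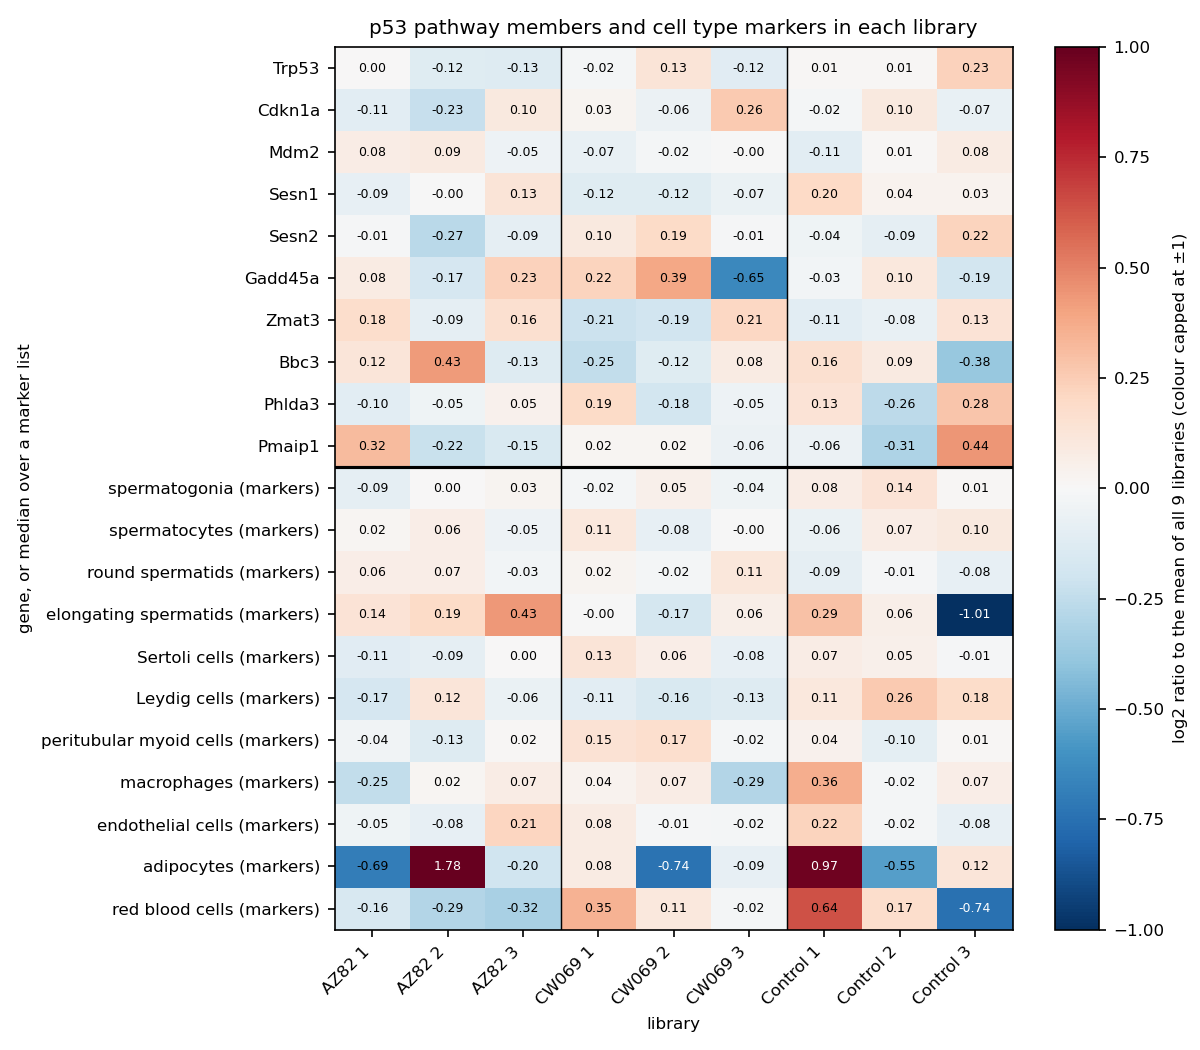
Log2 ratio of each library to the mean of all 9, for the 10 genes (top) and for the median over the markers of each cell type (bottom), libraries along the x axis, colour capped at ±1. Trp53 and Sesn2 are high in Control 3 (0.23 and 0.22), the library in which elongating spermatid markers are lowest (-1.01), and Gadd45a is lowest in CW069 3 (-0.65).

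Further genes of the pathway were read from lists. A list of 51 further p53 targets had 48 tested genes, of which 0 were called higher and 0 lower in any of the 4 comparisons (edgeR). After AZ82 29 of the 48 lay below 0 (50.3% of all genes did) and the median log2 fold change was -0.07, and 4 were lower and 0 higher at an unadjusted p under 0.05, in all 8.33% of the list beside 8.84% of all genes. After CW069 32 of 48 lay below 0 (51.0% of all genes), with a median of -0.09, and 5 were lower and 1 higher at that threshold, in all 12.5% of the list beside 7.34% of all genes. On the mean of both inhibitors the median was -0.12, with 34 of 48 below 0 (50.9% of all genes) and 8 lower and 1 higher at an unadjusted p under 0.05, in all 18.8% of the list beside 9.57% of all genes (4.31% higher and 5.27% lower). Without Control 3 the median was -0.01 after AZ82, -0.11 after CW069 and -0.06 on the mean of both.

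The list's lower genes after AZ82 with the smallest p were Ccng1, a p53-induced cyclin that acts on MDM2 phosphorylation, Xpc, which recognises DNA damage for excision repair, and Ddit4l, an inhibitor of mTORC1. Ccng1 measured 12.2, 12.5 and 12.8 CPM in AZ82 1 to 3 and 14.2, 14.4 and 13.4 CPM in CW069 1 to 3, and in Control 1 to 3 it measured 16.3, 14.6 and 16.4 CPM. All 6 inhibitor libraries were below all 3 Control libraries, which 2.92% of all genes also showed. The log2 fold change was -0.33 ± 0.09 after AZ82 (unadjusted p = 0.00369, adjusted p = 0.554 in edgeR) and -0.18 ± 0.09 after CW069 (adjusted p = 0.696).

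Xpc had -0.31 ± 0.10 (8.94 ± 0.0726 CPM after AZ82 against 11.1 ± 0.513 CPM in Control, SD, n = 3 each) and Ddit4l -0.36 ± 0.14, both with an adjusted p = 0.554 in edgeR. The higher ones with the smallest p after AZ82 were Plk2, a polo-like kinase (0.31 ± 0.15), Polk, a polymerase that copies past DNA damage (0.22 ± 0.10), and Trp53i13 (0.29 ± 0.14), with adjusted p = 0.569 to 0.579. Plk2 had 0.12 without AZ82 3, its highest library, and Polk 0.09 without Control 3.

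After CW069 the lower ones were Ephx1, an epoxide hydrolase, Fdxr, the ferredoxin reductase that also feeds electrons to steroid-making cytochromes in Leydig cells, and Ei24. Ephx1 measured 134, 152 and 137 CPM in CW069 1 to 3 while Control 1 to 3 had 218, 228 and 168 CPM, with no overlap (log2 fold change -0.54 ± 0.14; edgeR adjusted p = 0.524). Fdxr measured 37.7, 45.1 and 31.3 CPM in CW069 1 to 3 while Control 1 to 3 had 51.1, 48.2 and 51.9 CPM (-0.41 ± 0.13; adjusted p = 0.539), also without overlap, and Ei24 had -0.20 ± 0.08. Fdxr was already known as lower in these libraries when the list was written. Summed Leydig markers after CW069 (1490 to 1557 CPM) also lay below those of Control (1840 to 1972 CPM), and their part in these values was not tested. Among the higher ones were Plk2 (0.31 ± 0.15) and Tob1 (0.17 ± 0.09), both with an edgeR adjusted p = 0.689.

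**Figure D4:**
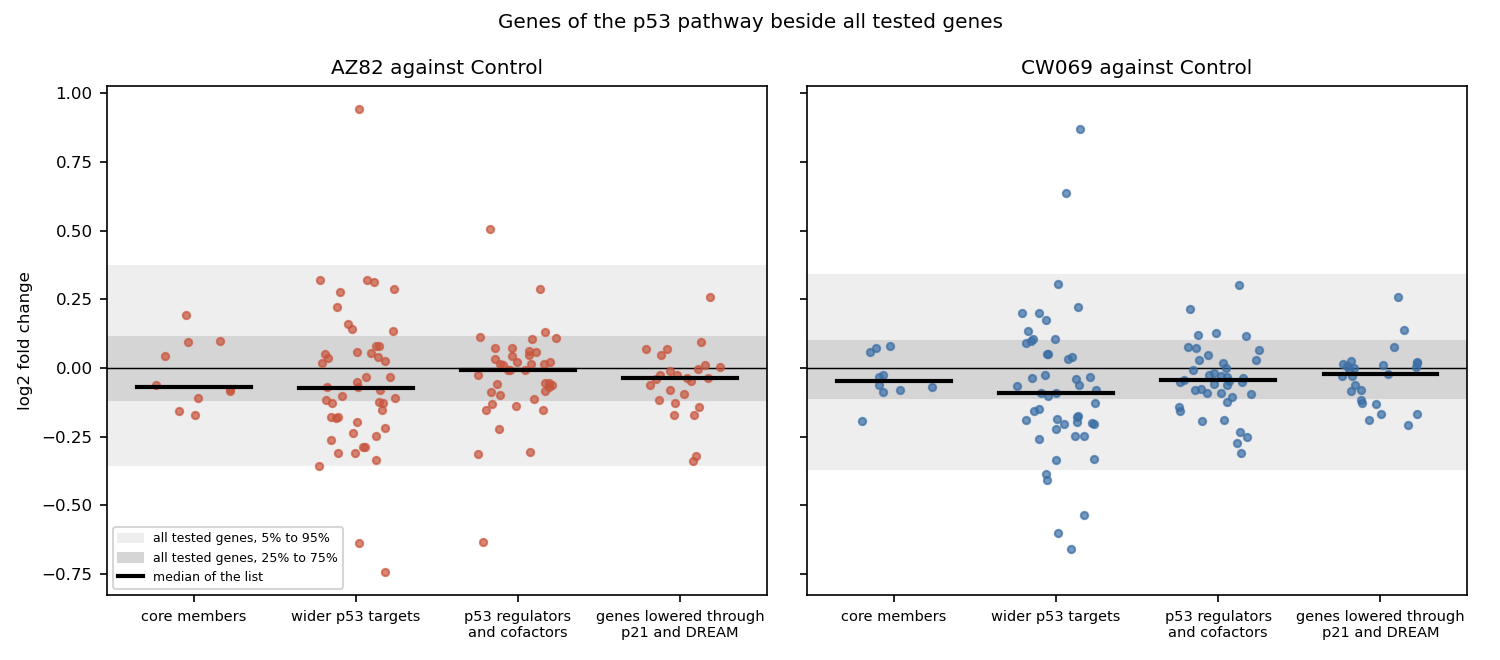
Log2 fold changes after AZ82 (left) and CW069 (right) of the 10 core members, 48 wider targets, 40 regulators and 25 genes lowered through p21, 1 point per gene with the list's median as a bar, over the spread of all tested genes (grey bands). The medians lie between -0.09 and -0.01.

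Among 40 regulators and cofactors of p53, all tested, 0 were called in any of the 4 comparisons (edgeR). The median log2 fold change was -0.01 after AZ82 and -0.04 after CW069, and 3 and 0 genes were lower, 0 and 1 higher, at an unadjusted p under 0.05. In all these are 7.5% of the list after AZ82, beside 8.84% of all genes, and 2.5% after CW069, beside 7.34% of all genes. After AZ82 the lower ones with the smallest p were Mapk14, the stress kinase p38 alpha (-0.31 ± 0.08; 20.2, 20.4 and 19.6 CPM in AZ82 1 to 3 and 25.5, 24.3 and 25.1 CPM in Control 1 to 3), Setd7, a lysine methyltransferase (-0.63 ± 0.21), and Sirt1, a deacetylase that acts on p53 (-0.15 ± 0.07), with edgeR adjusted p = 0.554 to 0.561. The higher ones were Cdkn2a, whose ARF product blocks MDM2 (0.51 ± 0.25; 3.78, 2.79 and 3.10 CPM in AZ82 1 to 3 against 2.42, 2.12 and 2.26 CPM in Control 1 to 3; adjusted p = 0.575), the p53 phosphatase gene Ppm1d (0.13 ± 0.08) and Trp53rkb (0.29 ± 0.18, but 0.07 without Control 3).

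After CW069 the higher genes of that list with the smallest p included Trp53inp2, which encodes an autophagy protein (0.22 ± 0.09, edgeR adjusted p = 0.647). The others were the histone methyltransferase gene Kmt5a (0.12 ± 0.08) and the acetyltransferase gene Ep300 (0.12 ± 0.08). Among the lower were Mapk14 (-0.16 ± 0.08), Banp (-0.23 ± 0.13) and Trp53rka (-0.25 ± 0.15). Of the p53 family, Trp63, known to guard the genome of mouse oocytes, was at 6.48, 4.07 and 4.19 CPM in AZ82 1 to 3, at 4.93, 5.95 and 4.60 CPM in CW069 1 to 3, and at 5.32, 3.59 and 5.12 CPM in Control 1 to 3. The groups overlapped, with edgeR adjusted p = 0.934 and 0.908. Trp73 had 0 to 5 reads per library and was not tested.

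The last list holds 25 cell cycle genes that p53 is known to lower through p21 and the DREAM repressor complex, and all were tested. None was called in any comparison by edgeR (0 of 25), with medians of -0.04 after AZ82 and -0.02 after CW069, and 1 higher and 2 lower, and 1 higher and 0 lower, at an unadjusted p under 0.05. In all these are 12% of the list after AZ82, beside 8.84% of all genes, and 4% after CW069, beside 7.34% of all genes. Cdc25c, the phosphatase that activates CDK1, lay higher without overlap in both, as did 6.65% of all genes after AZ82 and 6.13% after CW069. In 2.19% of all genes the libraries of both inhibitor groups lay above those of Control, as here. Cdc25c was at 19.7 ± 1.12 CPM after AZ82 and 19.7 ± 1.52 CPM after CW069, against 16.5 ± 0.838 CPM in Control (SD, n = 3 each; log2 fold changes 0.26 ± 0.09 and 0.26 ± 0.09; edgeR adjusted p = 0.554 and 0.585). The comparisons share their Control libraries. Mybl2 had 0.09 and 0.08, Foxm1 0.07 after AZ82 and E2f1 0.14 after CW069.

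Ccna2 (cyclin A2) had -0.34 ± 0.11 after AZ82, at 9.59 ± 0.294 against 12.1 ± 1.54 CPM, and Mcm2, a subunit of the replicative helicase, -0.32 ± 0.11 (edgeR adjusted p = 0.554 for both), with Ect2 at -0.14. Without Control 3 these were -0.23 for Ccna2 and -0.25 for Mcm2 (unadjusted p = 0.0716 and 0.0669 in edgeR), and -0.08 for Ect2. After CW069 the lower ones were Ccnb1 (-0.17 ± 0.08), Top2a (-0.13 ± 0.07) and Mcm2 (-0.21 ± 0.11), with adjusted p = 0.689 to 0.699.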

How the data were processed

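The deposited values are counts of reads per gene, made by the authors with no normalization. The submitters' processing notes name Trimmomatic, HISAT2, HTSeq and the build GRCm39; versions, settings and the strand option are not given in the sources used here. The labels name a stranded mRNA kit. The counts deposited per library matched those of the series-wide table for each of 19991 genes, and no 2 libraries of a group were alike within counting noise.

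Genes were filtered with filterByExpr by group. After TMM scaling, edgeR 4.0.16 under R 4.3.3 fitted 1 coefficient per group over all 9 libraries (6 residual degrees of freedom), with two-sided quasi-likelihood F tests and Benjamini-Hochberg adjustment over 15834 genes. SE and 95% intervals follow from the F statistic. CPM use TMM-scaled library sizes; CPM per kb uses exon lengths of GENCODE M21 (GRCm38), and log2 levels a prior count of 2. DESeq2 1.42.0 and limma-voom (3.58.1) were alternatives. Named genes are all members, from each further list the 3 higher and 3 lower genes of smallest p for each inhibitor against Control, and the 3 genes most correlated with Trp53, Cdkn1a and Mdm2; 2 genes that this rule names are not reported here. Members and lists were chosen with earlier results of these data known. Precision rests on totals of 13856070 to 18102593 counts and on the spread between libraries. The intervals treat reads as given by the authors.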

Additional observations from a re-analysis of the deposited data

How the results depend on the processing

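Calls among the 10 members stayed at 0 in all 4 comparisons under the 18 alternatives run (17 for the mean of both inhibitors), with smallest adjusted p-values of 0.448 for AZ82 against Control, 0.488 for CW069 against Control, 0.623 for CW069 against AZ82 and 0.365 for the mean of both. Signs of members near 0 turned in 7 of 180, 16 of 180, 9 of 180 and 21 of 170 recomputed log2 fold changes. Over all genes the calls depended on the tool: DESeq2 called 3 higher and 3 lower after AZ82, 14 and 14 after CW069, 9 and 4 for CW069 against AZ82, and 5 and 10 for the mean of both. After AZ82 library size alone, limma-voom and the robust dispersion each called 1 lower gene, library size alone called 1 lower after CW069, and a fit of only the groups compared called 5 higher and 3 lower for CW069 against AZ82; the causes were not tested. Leaving out each library in turn gave 0 to 3 higher and 0 to 1 lower genes after AZ82, 0 to 6 and 0 to 1 after CW069, 0 to 3 and 0 to 1 for CW069 against AZ82, and 0 to 4 and 0 to 2 for the mean of both.

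With the replicate number as a replicate block, 0 members and 0 genes were called in every comparison, including 0 lower genes for the mean of both, against 1 without the block. Deviations of same-numbered libraries correlated at -0.15 to 0.04, so the numbers were not taken as pairs.

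Scaling to library size alone turned the log2 fold changes of Mdm2 (-0.037), Foxm1 (-0.010) and Trp63 (-0.00882) after AZ82, of Gadd45a (0.016) and Pmaip1 (0.024) for CW069 against AZ82, and of Mdm2 (-0.056) and Zmat3 (-0.035) for the mean of both. With limma-voom Gadd45a had -0.017 after CW069 and Pmaip1 0.011 for CW069 against AZ82. Cdkn1a for the mean of both had 0.00829 with RLE factors, 0.00182 with no filter and 0.00854 in DESeq2. The causes were not tested.

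Leaving out 1 library moved the log2 fold changes after AZ82 between -0.00423 and 0.089 for Mdm2, -0.00650 and 0.20 for Gadd45a, -0.27 and 0.022 for Phlda3, -0.26 and 0.19 for Pmaip1, and -0.18 and 0.19 for Trp63. After CW069 they ran between -0.022 and 0.15 for Cdkn1a, -0.073 and 0.020 for Mdm2, -0.00185 and 0.16 for Sesn2, -0.14 and 0.35 for Gadd45a, -0.19 and 0.047 for Zmat3, -0.22 and 0.042 for Bbc3, -0.24 and 0.053 for Phlda3, -0.24 and 0.19 for Pmaip1, and -0.019 and 0.24 for Trp63. For CW069 against AZ82 they ran between -0.23 and 0.26 for Gadd45a, -0.084 and 0.12 for Phlda3, and -0.11 and 0.19 for Pmaip1. For the mean of both they ran between -0.052 and 0.049 for Cdkn1a, -0.039 and 0.053 for Mdm2, -0.11 and 0.054 for Sesn2, -0.026 and 0.22 for Gadd45a, -0.045 and 0.11 for Zmat3, -0.092 and 0.17 for Bbc3, -0.25 and 0.037 for Phlda3, and -0.23 and 0.19 for Pmaip1. Depth limits the members with few reads, Gadd45a, Bbc3, Phlda3 and Pmaip1.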
